A study of Mus musculus with 5 samples.

Results

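Induced hepatic progenitor cells (iHPC) were compared with the neural progenitor cell (NPC) line they were made from. The comparison used 3 of the 5 mouse arrays of the series, 2 of iHPC and 1 of NPC, chosen by their labelled cell type. NSBAg2, the NPC line, was established from the embryonic stem cell line BAg73C2, in which a beta-geo cassette (a reporter joined to a gene for resistance to the drug G418) was knocked into Afp. All 3 cultures share this allele. The iHPC arrays hold RNA of NSBAg2 cells infected with pMXs retroviruses for 9 transcription factors (iHPC 9F) or 10 (iHPC 10F), to which G418 was added 3 weeks after infection for 1 week. The drug kills cells that do not transcribe the cassette, so a high level of Afp was itself selected. The NPC array carries no label of infection or of G418. The labels do not name the factors, and the signal of a vector and that of the cell's own gene cannot be told apart on a probe that matches both. The other 2 arrays, of hepatic progenitor cell (HPC) lines from E13.5 fetal liver, entered the estimate of the spread, and their values are given beside those of iHPC and NPC. HPC replicate 1 is the line HB1 (C57BL6J) and HPC replicate 2 the line HNG2 (STOCK Tg(Nanog-GFP, Puro)1 Yam). The labels do not call iHPC 9F and 10F repeats of the same condition. The p-values therefore weigh differences against the spread within the 9F and 10F pair and within the HB1 and HNG2 pair, and NPC, with 1 array, was taken to vary as much as they do.

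Hepatic progenitors of the fetal liver give rise to hepatocytes, which make plasma proteins, bile acids and urea, and to cholangiocytes, the epithelial cells that line bile ducts. Their identity depends on transcription factors such as HNF4A, the HNF1 and FOXA families and the ONECUT proteins, which regulate one another as well as liver enzymes and transporters. HNF1 and HNF4A are also active in kidney tubules and gut. Neural progenitors are marked by SOX2, PAX6 and the filament protein nestin. Genes of plasma proteins, epithelial adhesion and keratins, and the Hox clusters were kept apart here, and the account below is of the other genes.

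Between 58.9% and 65.6% of the 43379 non-control spots of an array were well above background, and 0 were saturated. The number of arrays limits the precision. A level is the log2 signal minus that of the array's 75th percentile, and levels of different genes, read by different probes, cannot be compared with each other. Afp was at 6.4 on iHPC 9F, 6.82 on iHPC 10F and -6.89, not well above background, on NPC. Alb, serum albumin, was at 3.23, 3.98 and -7.51 on the same arrays, again not well above background on NPC. All 6 neural progenitor markers examined were well above background on NPC, with Sox2 at 0.86, Pax6 at -0.99, Nes at 1.18, Msi1 at -1.11, Sox1 at -4.34 and Fabp7 at -4.31. NPC was above both iHPC arrays for Sox2, Pax6, Sox1 and Fabp7 and below them for Nes and Msi1; 5 of the 6 were well above background on both iHPC arrays too and 4 on both HPC arrays. The NPC array also held signals for genes of connective tissue and skeleton, described below.

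Limma tested 19310 genes and called 1090 of them (5.64%) at an adjusted p under 0.05 after Benjamini-Hochberg adjustment, 540 higher in iHPC (2.80%) and 550 lower (2.85%). Outside the plasma protein, epithelial and Hox lists, 478 were higher and 543 lower. The median log2 difference, iHPC minus NPC, was 0.03 over all genes tested. At an unadjusted p under 0.05, 2304 genes were higher (11.9%) and 2411 lower (12.5%), which is the background for the unadjusted counts of the lists below. All 1090 had the same sign on both iHPC arrays. For 249 of the higher genes no probe of the gene was well above background on NPC. For 253 of the lower genes none was on either iHPC array. In both cases the fold is given as a bound, "at least", against the lowest signal well above background. The smallest called difference was 1.64 on the log2 scale, and of 2783 genes that differed by more than 4-fold 1035 were called.

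**Figure D1:**
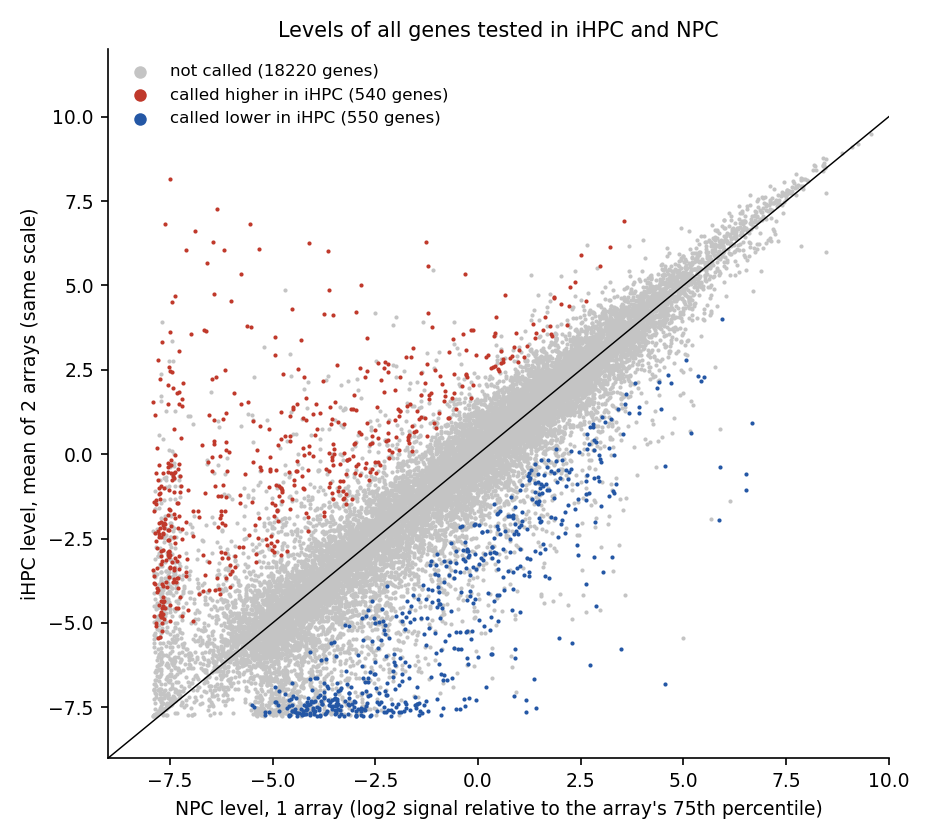
Each point is 1 of the 19310 genes tested, with its NPC level (1 array) on the horizontal axis and its mean iHPC level (2 arrays) on the vertical axis, both as log2 signal relative to the array's 75th percentile, and the line marks equal levels. The 540 genes called higher and the 550 called lower lie on either side, many of them at the left or lower edge, where the signal of 1 group is not well above background.

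The count of calls depended on which arrays gave the spread. All 3 arrays of the comparison have the same scan day, and NPC was on the slide of iHPC 10F. When scan day was fitted as a block, 6755 genes passed (35.0%; 3237 higher, 16.8%, and 3518 lower, 18.2%), and with only these 3 arrays 7312 of 18368 (39.8%; 3488 higher and 3824 lower), since the narrow 9F and 10F pair then alone sets the error. Over all genes the median SD was 0.106 within the iHPC pair and 0.375 within the HPC pair. Because the 3 arrays share a scan day, the differences are the same with scan day as a block, and the direction of a call could not change. All 1090 passed again there, against the error of the 9F and 10F pair alone. With iHPC 9F left out 0 genes passed (2216 at an unadjusted p under 0.05), and with 10F left out 0 (2253), because the HPC pair then alone set the error; the count was 6538 without HPC replicate 1 and 6005 without HPC replicate 2. Among genes that differed by more than 4-fold, 45.9% were called where neither HPC array was well above background and 41.8% where both were, but 10.2% where only 1 was.

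Genes of liver transcription factors went both ways. Of 28 tested, 5 rose (17.9%) and 2 fell (7.14%), and the list median was 0.08, near the 0.03 of all genes tested. Hnf4a, the gene of a nuclear receptor of hepatocytes, was at 1.41 on iHPC 9F, 1.56 on 10F and -7.56 on NPC (limma adjusted p = 0.0264). The NPC signal of this probe was not well above background, so the size of the difference is not given, while another probe of the gene was above background on NPC. Both iHPC arrays were far above NPC, and both HPC arrays were higher still, at 2.6 and 2.02. Hhex, a homeobox gene needed for the liver bud, rose from -2.01 on NPC to 0.79 and 1.21 (adjusted p = 0.0419). Onecut1 rose by 2.97 ± 0.27 (SE, adjusted p = 0.0301) and Onecut2 by 2.76 ± 0.34 (adjusted p = 0.0427), both factors of early hepatic and biliary cells.

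Foxa2, a forkhead factor that opens liver enhancers, fell from 2.98 on NPC to 0.07 on 9F and -0.36 on 10F (difference -3.13 ± 0.34, limma adjusted p = 0.0350). Cebpa, a factor of mature hepatocytes, fell from 1.46 to -0.55 and -0.61 (difference -2.04 ± 0.27, adjusted p = 0.0466). NPC lay above both iHPC arrays for both genes, and the HPC arrays were at 4.91 and 4.56 for Foxa2 and at 1.32 and 1.64 for Cebpa. With median centring 1 factor of the list passed lower in place of 2. Klf15, a factor of fasting metabolism, was at 1.69 and 1.60 in iHPC and -2.86 in NPC, and did not pass (adjusted p = 0.0795, 0.00438 with scan day as a block), with the HPC arrays apart at 0.34 and -1.48. Prox1, at -6.13, -4.83 and -7.90, and Gata6, at -3.46, -3.78 and -5.11, did not pass either (adjusted p = 0.268 for each). On the HPC arrays Gata6 was at 3.48 and 2.21.

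Promoters were searched for the motifs of liver regulators. The HNF1 motif, GTTAAT and ATTAAC with any 1 base between them, which reads the same on both strands, was searched with up to 2 mismatches in the 250 bases before the start sites that RefSeq gives (GRCm38.p6). A match lay there for 38 of 338 genes called higher that have a promoter in the table (11.2%), 6 of 306 called lower (1.96%) and 139 of all 11182 tested (1.24%). Leaving out plasma protein and epithelial genes, it was 30 of 292 (10.3%). With at most 1 mismatch the shares were 2.66%, 0.654% and 0.197%. Of the 38 genes 32 had their nearest match within 100 bases of the start. Among genes called higher with scan day as a block the share was 3.34% (68 of 2033). The windows held 44.0% A and T for the genes called higher, 42.2% for those called lower and 41.1% for all. Whether base composition had a part in the shares was not tested. Some of the 38 share sequence: Akr1c12, Akr1c13 and Akr1c19 are close copies of 1 gene family. A match is a description of the letters and not of binding, and no test was made.

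**Figure D2:**
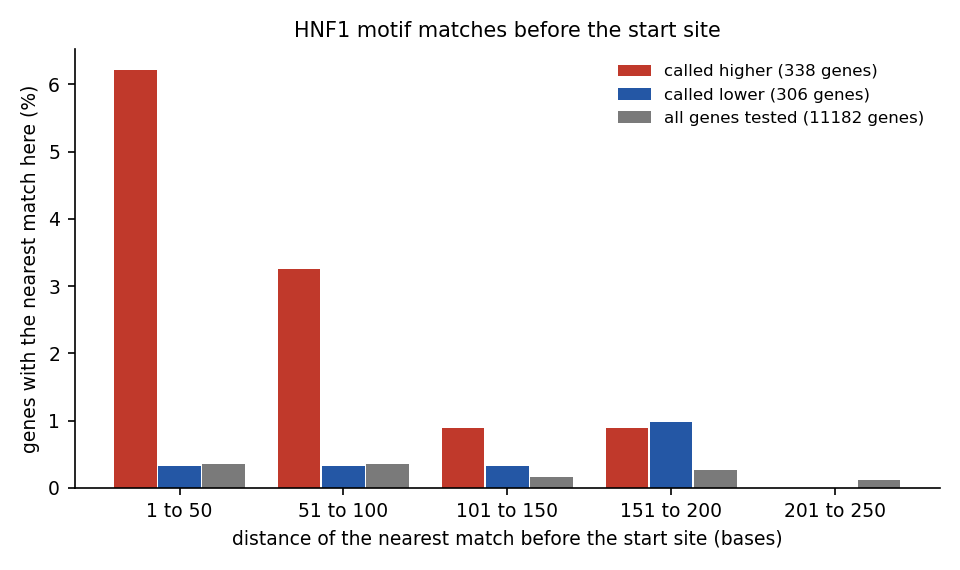
Bars give the percentage of genes whose nearest HNF1 match has its edge closer to the start site in each bin of bases before that site. They are drawn for genes called higher (338), called lower (306) and all genes tested with a promoter (11182). The genes called higher stand at 6.21% in the nearest bin against 0.358% of all genes, and at 0.888% in the third bin.

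The other motifs were searched with 0 mismatches, so their shares cannot be set against that of HNF1 with up to 2. With 0 mismatches HNF1 itself lay before 0 of the 338 genes called higher and 1 of the 11182 tested. On either strand, FOXA (TGTTTAC) lay before 5.33% of the genes called higher and 2.99% of all, the E-box CACCTG before 23.7% and 18.9%, and the TATA box TATAAA before 12.4% and 9.70%. HNF4 (CAAAGTCCA) lay before 0.296% and 0.546%, C/EBP (TTGCGCAA) before 0.296% and 0.286%, the interferon response element (GAAA and GAAA with any 2 bases between them) before 2.96% and 3.17%, the sterol element TCACNCCAC before 1.78% and 1.25%, and CRE (TGACGTCA) before 1.18% and 2.75%.

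Matches before 7 genes called higher are shown because they span the roles described here: regulators (Pcbd1, Hnf4a, Nr1h4), a bile duct and kidney gene (Pkhd1), kidney and gut transport genes (Cltrn, Slc17a1) and an amino acid enzyme (Prodh2). Pcbd1 encodes DCoH, the dimerization cofactor of HNF1, and was at 4.08 and 4.02 in iHPC and 0.43 in NPC (difference 3.62, limma adjusted p = 0.0285). Pcbd1, Hnf4a, Prodh2 and Pkhd1 were well above background in both HPC lines too, and Cltrn and Slc17a1 in neither. Each stretch is the 120 bases before a RefSeq start site (GRCm38.p6), 5′ to 3′ on the gene's strand, with the match in capitals.
Pcbd1, chr10:61089211-61089330, plus strand: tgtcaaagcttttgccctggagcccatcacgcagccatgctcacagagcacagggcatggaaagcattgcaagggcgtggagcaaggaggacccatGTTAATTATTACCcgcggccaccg
Hnf4a, chr2:163547035-163547154, plus strand: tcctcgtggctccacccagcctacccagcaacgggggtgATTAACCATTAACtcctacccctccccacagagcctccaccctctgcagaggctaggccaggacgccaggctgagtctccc
Nr1h4, chr10:89506659-89506778, minus strand: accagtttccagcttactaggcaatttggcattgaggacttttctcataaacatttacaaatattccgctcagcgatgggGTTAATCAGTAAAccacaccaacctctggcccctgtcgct
Pkhd1, chr1:20618058-20618177, minus strand: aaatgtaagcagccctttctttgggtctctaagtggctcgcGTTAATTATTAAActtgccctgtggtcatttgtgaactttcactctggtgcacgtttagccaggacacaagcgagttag
Cltrn, chrX:164090067-164090186, plus strand: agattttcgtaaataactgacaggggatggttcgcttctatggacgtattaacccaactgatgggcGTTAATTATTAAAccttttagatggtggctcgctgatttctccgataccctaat
Slc17a1, chr13:23870153-23870272, plus strand: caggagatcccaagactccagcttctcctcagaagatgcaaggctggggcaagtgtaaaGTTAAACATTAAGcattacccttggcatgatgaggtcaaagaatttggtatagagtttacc
Prodh2, chr7:30493538-30493657, plus strand: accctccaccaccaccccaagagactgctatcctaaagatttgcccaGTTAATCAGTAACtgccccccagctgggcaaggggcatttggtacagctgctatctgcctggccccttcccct
The matches of Pcbd1, Pkhd1, Cltrn and Prodh2 differ from the motif at 1 base and those of Hnf4a, Nr1h4 and Slc17a1 at 2. They end between 12 bases (Pcbd1) and 69 bases (Hnf4a) before the start.

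The largest rises among genes measured in both groups were of enzymes, epithelial surface genes and signalling adaptors. Plac8, a small cysteine-rich protein, was at 6.33 on 9F, 6.2 on 10F and -4.12 on NPC (difference 10.38 ± 0.36, limma adjusted p = 0.0260). Grb7, an adaptor of receptor tyrosine kinases, was at 4.22, 4.37 and -4.52 (difference 8.81 ± 0.62, adjusted p = 0.0285). The iHPC and NPC arrays did not overlap, and both HPC arrays lay on the iHPC side for both genes. Hsd3b4, a steroid dehydrogenase, was at 5.80, 6.25 and -3.66 (difference 9.68 ± 0.88, adjusted p = 0.0303). For Hsd3b4 the HPC arrays, at -2.38 and -4.21, lay with NPC. The aldo-keto reductase genes Akr1c12, Akr1c19 and Akr1c13 rose by 8.42, 7.90 and 7.86, and Vil1, the actin-bundling villin of microvilli, by 7.67 ± 0.95 (adjusted p = 0.0427). Bicc1, an RNA-binding protein of kidney and bile duct epithelium, rose by 7.88 ± 0.23 and Tspan8, a tetraspanin of gut epithelium, by 7.69 ± 0.26. Bex1 rose by 7.17, and the galectins Lgals6 and Lgals4, sugar-binding proteins of gut epithelium, by 7.11 and 6.80.

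**Figure D3:**
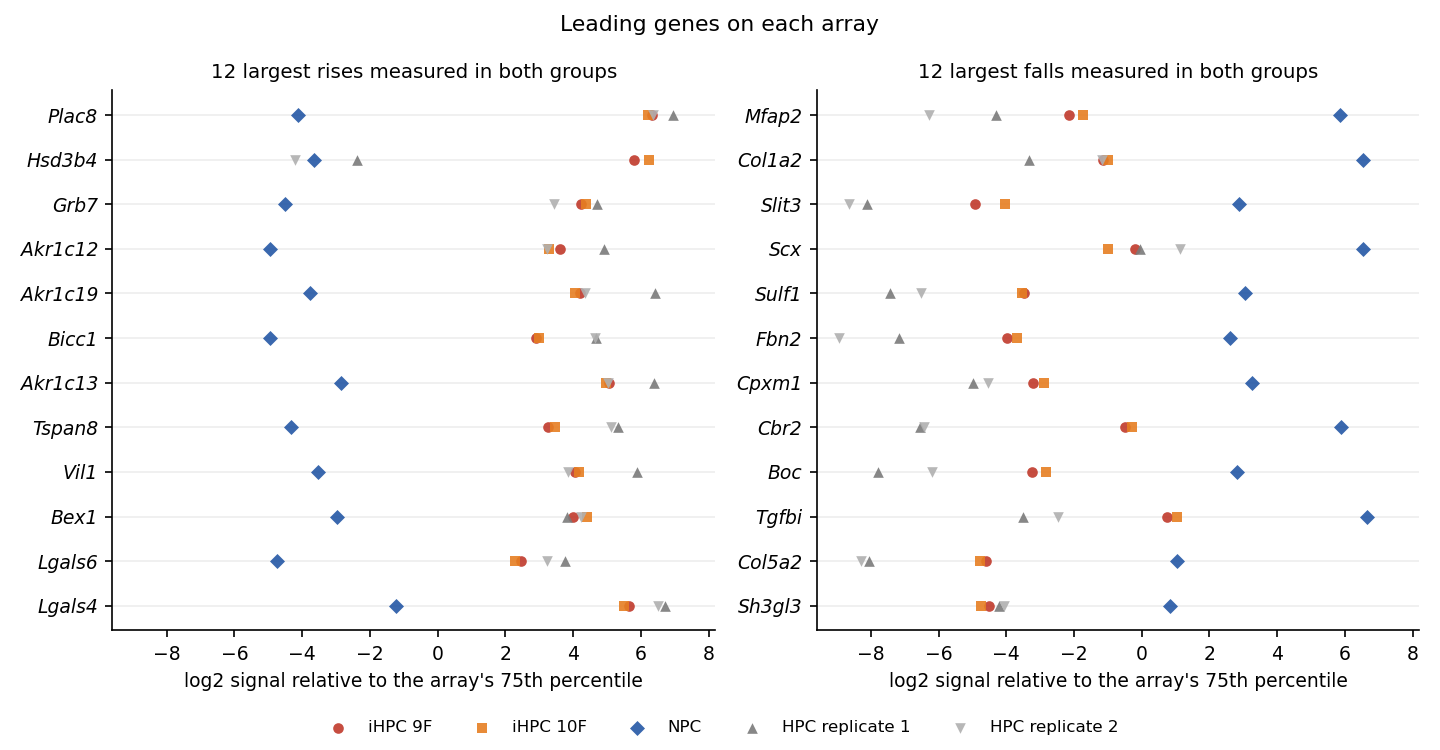
Each row is a gene and each symbol its level on 1 array (log2 signal relative to the array's 75th percentile), for the 12 largest called rises and the 12 largest called falls measured in both groups, with levels comparable within a row only. The NPC symbol stands apart from both iHPC symbols in every row, and HPC lies with iHPC in most of them but with NPC for Hsd3b4.

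Among genes not well above background on NPC, Tmem252 had the largest bound. It was at 5.6 and 5.73 in iHPC against an NPC level of -6.60, which makes it at least 2451-fold higher (limma adjusted p = 0.0242), and its HPC levels were -3.31 and -3.88. Ankrd1, a YAP-responsive gene, was at least 630.9-fold higher, and Perp, a p53-responsive gene of desmosomes, at least 574.3-fold. Dmbt1, a mucosal scavenger receptor, reached at least 333.7-fold, Anxa13, an annexin of gut and kidney epithelium, at least 272.0-fold, and Ifi27l2b, an interferon-inducible gene, at least 237.2-fold. The chemokine gene Cxcl17, at least 405.0-fold higher, was at 3.08 and 3.06 in iHPC against -1.19 and -3.59 in HPC. Tmigd1, an adhesion protein of kidney and gut epithelium, was at least 186.4-fold higher.

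Several genes of bile acid handling rose. Of 16 tested, 4 rose (25.0%, against 2.80% of all genes tested) and 0 fell, 7 and 0 at an unadjusted p under 0.05 and 12 and 0 with scan day as a block, and the median difference was 3.35 (1.54 with normexp background correction). Nr1h4, the nuclear receptor FXR that senses bile acids, was at 2.27 on 9F, 2.18 on 10F and -6.47 on NPC, and so at least 225.9-fold higher (limma adjusted p = 0.0285). Fgfr4, the receptor for the gut hormone that restrains bile acid synthesis, was at 1.22, 1.06 and -4.57 (difference 5.71 ± 0.25, adjusted p = 0.0267). The exporters Abcc4 and Abcb11 (the bile salt export pump) rose as well. Abcc4 was at 3.54, 3.61 and -0.37, and Abcb11, at -2.38 and -2.44, was at least 8.96-fold higher, with the HPC arrays at -5.21 and -5.47. For 7 of the 16 the probe was not well above background on NPC.

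The genes of the urea cycle and amino acid breakdown had 5 of 27 higher (18.5%), 0 lower and a median of 1.04. At an unadjusted p under 0.05 they were 10 and 1, and with scan day as a block 14 and 1. Cps1, which makes carbamoyl phosphate in the first step of the urea cycle, was at -0.72 on 9F, 0.20 on 10F and -7.54 on NPC, a rise of at least 40.29-fold (limma adjusted p = 0.0301). Hgd, an enzyme of tyrosine breakdown, was at -0.32, -0.33 and -7.51, at least 38.6-fold higher (adjusted p = 0.0258). Both genes were low in HPC, at -5.40 and -6.32 for Cps1 and -8.11 and -8.23 for Hgd. Ftcd, of histidine breakdown, was at least 8.28-fold higher, Cbs, which makes cystathionine, rose by 4.93 ± 0.50 (adjusted p = 0.0331), and Prodh2, a proline oxidation enzyme, by 3.60 ± 0.41 (adjusted p = 0.0374). Glul, glutamine synthetase, was at 5.34 and 5.52 in iHPC and 2.36 in NPC, and did not pass (adjusted p = 0.218, 0.00596 with scan day as a block), with HPC at 4.43 and 2.01.

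Of 32 genes of glucose, fructose and glycogen metabolism, 4 rose (12.5%) and 1 fell (3.12%), with a median of 0.56. The count of rises was 1 with the mean of a gene's probes and 0 with no filter on dim probes. Slc2a2, the glucose transporter of hepatocytes and kidney tubules, was at -0.47 on 9F, 0.13 on 10F and -7.47 on NPC, a rise of at least 42.92-fold (limma adjusted p = 0.0449). The gene that fell, Eno2, encodes the enolase of neurons and went from 1.06 to -1.77 and -1.65 (adjusted p = 0.0301). Pfkfb3 and Pfkp, which promote glycolysis, rose by 2.66 and 2.42.

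The lipid lists held 0 to 2 calls each. Over all genes tested, 2.80% were called higher and 2.85% lower. Of 27 genes of fatty acid binding, oxidation and ketone bodies 2 rose (7.41%) and 0 fell, 4 and 1 at an unadjusted p under 0.05, with a median of 0.08. Pdk4, a kinase that turns off pyruvate oxidation in fasting, was at 2.42, 2.98 and -2.43 on 9F, 10F and NPC (difference 5.14 ± 0.50, limma adjusted p = 0.0315), and Bdh1, of ketone bodies, rose by 3.05 ± 0.29. Of 24 genes of fatty acid and triglyceride synthesis, Gpam alone rose (4.17%), by 2.67 ± 0.28. None fell (1 higher and 3 lower at an unadjusted p under 0.05). Fasn, fatty acid synthase, was at 6.39, 6.44 and 7.11 and did not pass (adjusted p = 0.189). Of 25 cholesterol synthesis genes limma called 0, also at an unadjusted p under 0.05, and with scan day as a block 1 rose and 6 fell; 19 of them were below NPC on both iHPC arrays, with a median of -0.39.

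Of 39 cytochrome P450 and conjugation genes 3 rose (7.69%) and 0 fell, 15 and 2 at an unadjusted p under 0.05, with a median of 1.20 (0.53 with normexp background correction). Ephx2, soluble epoxide hydrolase, was at 2.55, 2.74 and -3.44 on 9F, 10F and NPC (difference 6.08 ± 0.27, limma adjusted p = 0.0267). Nr1i2, the drug-sensing receptor PXR, was at -3.27 and -3.39 in iHPC and at least 4.81-fold higher, and Sult1b1, a sulfotransferase, at least 3.50-fold. For 13 of the 39 the probe was not well above background on NPC. Of 26 redox genes 2 rose (7.69%) and 1 fell (3.85%), 6 and 1 at an unadjusted p under 0.05 and 10 and 2 with scan day as a block, and 20 lay above NPC on both iHPC arrays, with a median of 0.60. Gsr and Gss, which recycle and make glutathione, rose by 2.40 and 2.02, while Nqo1, a target of Nrf2, fell by 2.71 on the log2 scale, from 2.26 to -0.30 and -0.59 (adjusted p = 0.0325).

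Several genes of gut epithelium rose. In the gut and endoderm list 7 of 20 rose (35.0%) and 0 fell, 10 and 0 at an unadjusted p under 0.05 and 14 and 0 with scan day as a block, and the median was 4.23 (2.03 with normexp). For 10 of the 20 the probe was not well above background on NPC, and the median of the 10 measured in both groups was 2.68. Besides Tspan8, Vil1 and Lgals4, the genes called higher were Cdx2, Agr2, Lgals2 and Cdhr5. Cdx2, a homeobox gene of intestinal epithelium, was at -0.29 on 9F, -0.83 on 10F and -7.85 on NPC, a rise of at least 32.72-fold (limma adjusted p = 0.0267), and the HPC arrays were at 4.70 and 4.37. Agr2, of mucus-secreting cells, was at -1.20 on 9F and 0.58 on 10F, at least 38.93-fold higher than NPC (adjusted p = 0.0466), and low in HPC, at -6.45 and -5.48. Lgals2 rose by 5.05, and Cdhr5, a cadherin that links microvilli, was at least 15.1-fold higher.

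Among 23 bile duct genes, 7 rose (30.4%) and 1 fell (4.35%), but the list as a whole was near even. At an unadjusted p under 0.05 the counts were 8 and 6, with scan day as a block 9 and 8, and 12 of the 23 lay below NPC on both iHPC arrays, with a median of -0.13. The 7 were Bicc1, Tspan8, Vil1, Ggt1, Pkhd1, Ezr and Onecut1. Pkhd1, fibrocystin of cilia in bile duct and kidney, was at least 20.28-fold higher (limma adjusted p = 0.0363), and Ezr, ezrin of microvilli, rose from 2.50 to 5.93 and 5.89 (adjusted p = 0.0285). Ggt1, the brush border enzyme that breaks down glutathione, was at 1.06, 1.36 and -6.14, at least 111.9-fold higher (adjusted p = 0.0301), and it was low in HPC, at -5.90 and -4.55. Cftr, the chloride channel of cholangiocytes, fell from -1.66 to -4.80 and -5.12 (adjusted p = 0.0301). Spp1, osteopontin, was at 7.89, 7.57 and 8.47, and did not pass (adjusted p = 0.216). Of 20 hepatoblast and oncofetal genes, Cd24a alone rose, by 2.70 ± 0.23, and 0 fell (3 and 1 at an unadjusted p under 0.05; median 0.14).

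A set of 69 genes rose in iHPC and was not well above background on either HPC array; it was singled out after its values were seen. The HPC arrays entered the fit and so the calls, and among the 1061 genes tested that were dim on both HPC arrays 69 were called higher and 254 lower (30.4% in all), so the size of the set is no result in itself. Cltrn, collectrin, a kidney protein that supports amino acid uptake, was at 0.94 on 9F, 1.92 on 10F and -7.21 on NPC, a bound of 129.9-fold or more (limma adjusted p = 0.0285). Slc17a1, a phosphate and urate transporter of the tubule, was at 1.96 and 1.68, at least 170.4-fold higher (adjusted p = 0.0360). Both genes were low on NPC and both HPC arrays and high on both iHPC arrays.

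Further transporters and enzymes of the set are given here, picked after their values were seen, and they do not stand for all 69. The set also held genes of the plasma protein list, and Hgd, Oas2, Ptprc and Il6 of other lists. None of the gene lists was of kidney genes, so no share called can be set beside the kidney genes named. Slc17a3 was at least 33.06-fold higher and Slc6a18, an amino acid transporter of the kidney brush border, at least 24.29-fold. Hao2, a hydroxyacid oxidase of kidney peroxisomes, was at least 29.82-fold higher, Havcr1, the kidney injury molecule, at least 19.22-fold, Acsm1 at least 17.85-fold, and Dpep1, a brush border dipeptidase, at least 13.02-fold. The steroid dehydrogenases Hsd3b5, Hsd3b1 and Hsd3b6 were at least 600.5-fold, 46.64-fold and 14.97-fold higher; with Hsd3b4 they form a family of close copies whose probes may read each other's transcripts. Fgf21, a hormone of the fasted liver, was at -2.61 and -3.41 in iHPC and at least 6.00-fold higher. Cdh16, the kidney-specific cadherin, was well above background on 1 HPC array and so lies outside the set. It was at 3.17 on 9F, 2.00 on 10F and -7.52 on NPC, at least 290.0-fold higher (adjusted p = 0.0285), against -5.85 and -4.80 in HPC. Of the 69 genes 44 had a promoter in the RefSeq table, and 8 of these (18.2%) held the HNF1 match. The share was 11.2% for all genes called higher and 1.24% for all tested. Windows of the 44 held 51.8% A and T, against 44.0% and 41.1%. Whether composition had a part was not tested.

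**Figure D4:**
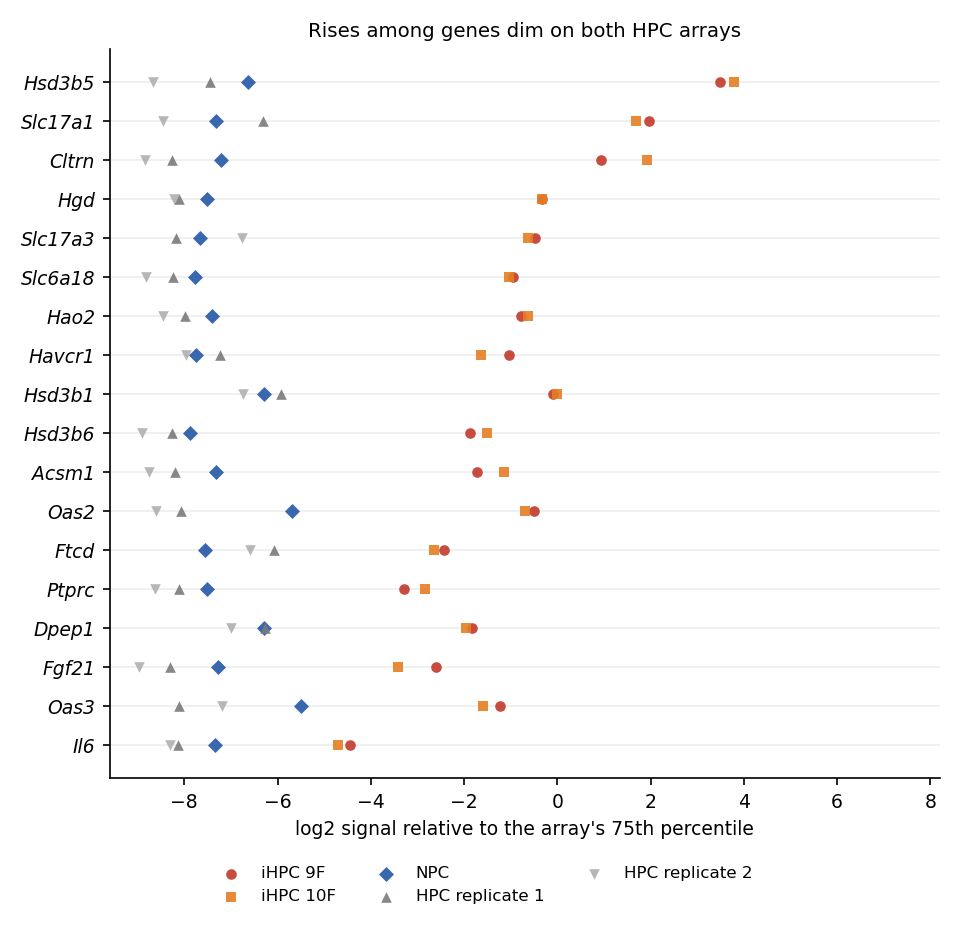
Each row is a gene named in the text among the 69 genes called higher in iHPC and not well above background on either HPC array, and each symbol is the level on 1 array (log2 signal relative to the array's 75th percentile). The iHPC symbols of Slc17a1 stand at 1.96 and 1.68, while NPC and both HPC symbols lie between -8.46 and -6.31.

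Genes of secretion, respiration and translation were called at or below the shares over all genes tested, 2.80% higher and 2.85% lower. In lists of this size those shares are few genes, so low counts say little. Of 37 genes of ER folding and secretion 1 rose, Sdf2l1, a chaperone partner, by 2.54 ± 0.30 (limma adjusted p = 0.0387), and 1 fell, Sec24d, a coat subunit of ER vesicles, from 1.89 to 0.14 and 0.16 (adjusted p = 0.0472), each 2.70% of the list. The list median was 0.29, and 31 of the 37 were above NPC on both iHPC arrays. Limma called 0 of 46 oxidative phosphorylation genes (4 higher and 0 lower at an unadjusted p under 0.05; 3 and 0 with scan day as a block) and 0 of 47 cytosolic ribosomal protein genes (0 unadjusted; 1 and 0 with scan day as a block). Their medians were 0.20 and 0.26, and 0.06 and 0.08 with quantile normalization.

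Genes of the extracellular matrix were among the largest falls. Mfap4, a glycoprotein of elastic fibres, was at 4.56 on NPC and -6.43 and -7.22 on the iHPC arrays, at least 1018-fold lower (limma adjusted p = 0.0339). Mfap2, of the same fibres, fell from 5.86 to -2.15 and -1.73 (difference -7.80 ± 0.94, adjusted p = 0.0405). Col1a2, a chain of collagen I, fell from 6.53 to -1.14 and -1.01 (difference -7.60 ± 1.01, adjusted p = 0.0471). NPC lay far above both iHPC arrays for all 3 genes, and both HPC arrays were on the iHPC side. Fbln5, an organiser of elastic fibres, was at least 474.4-fold lower, Col8a2 at least 283.8-fold, Postn, periostin of connective tissue, at least 96.05-fold, and Emilin1 at least 54.4-fold. Fbn2, a fibrillin, fell by 6.46, Sulf1, which trims heparan sulfate, by 6.54, Tgfbi by 5.75 and Col5a2 by 5.71, all on the log2 scale.

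Of 42 genes of elastic fibres, proteoglycans and matrix glycoproteins 8 fell (19%) and 0 rose (17 and 3 at an unadjusted p under 0.05), with a median of -1.29. Beside those already named they were Sparc, which fell by 3.03, and Lama2, a laminin chain, at least 9.07-fold lower. In the list of 36 collagens and collagen-processing enzymes 3 fell (8.33%) and 0 rose. Here 16 and 0 passed at an unadjusted p under 0.05, 26 and 0 passed with scan day as a block, and 34 of 36 lay below NPC on both iHPC arrays, with a median of -1.76. Plod2, a lysyl hydroxylase of collagen, had a difference of -1.98 (adjusted p = 0.0436). Serpinh1, the collagen chaperone, was at 5.51 and 5.30 in iHPC and 6.36 in NPC and did not pass (adjusted p = 0.152).

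Of 37 transcription factors of mesenchyme, limb and skeleton 7 fell (18.9%) and 0 rose (17 and 2 at an unadjusted p under 0.05), the median was -2, and 34 lay below NPC on both iHPC arrays. Scx, scleraxis, the factor of tendon cells, fell from 6.52 on NPC to -0.20 on 9F and -1.01 on 10F (difference -7.12 ± 0.69, limma adjusted p = 0.0315). Eya1, a transcriptional cofactor of organ precursors, fell by 2.97 (adjusted p = 0.0427). Alx1, of facial mesenchyme, fell by 3.02, and Meox2, of somites and limb, was at least 2.77-fold lower. Nr2f2 fell by 2 and Meis2 by 2.21. Prrx2 was at 1.87, 1.72 and 4.99 and did not pass (adjusted p = 0.283, 0.00563 with scan day as a block), as did not Snai2, a repressor of epithelial genes, at 1.82, 1.66 and 4.40 (adjusted p = 0.155).

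Markers of fibroblasts, pericytes and smooth muscle were read as a check on other cell types. The summed signal of the 26 on the array was 9.49 in NPC and 8.11 and 7.81 in iHPC on the log2 scale, with 25 of 26 well above background in NPC and 22 on each iHPC array. Tgfbi, Pdgfra and Myh11 fell among 25 tested and 0 rose (9 and 3 at an unadjusted p under 0.05). Pdgfra, the PDGF receptor of fibroblasts and glial precursors, fell from -0.26 to -5.79 and -4.66 (limma adjusted p = 0.0405), and Myh11, smooth muscle myosin, was at least 1.73-fold lower. S100a4, a fibroblast marker, was at 6.24, 5.75 and 8.46 (adjusted p = 0.336). Whether cells of this kind in the NPC culture had a part in the falls of matrix genes was not tested; in bulk RNA fewer cells of a type and less RNA per cell cannot be told apart. Among 13 endothelial markers Flt1 rose by 2.98 and Erg was at least 5.46-fold lower, and among 9 leukocyte markers Ptprc, at -3.29 and -2.84 in iHPC, was at least 5.78-fold higher. Limma called 0 of 4 erythroid markers (1 higher and 0 lower at an unadjusted p under 0.05; 1 and 1 with scan day as a block) and 0 of 11 muscle markers (2 and 1; 3 and 3).

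Of 27 neural stem and progenitor genes 3 fell (11.1%) and 0 rose (7 and 2 at an unadjusted p under 0.05; 13 and 4 with scan day as a block), with a median of -1.13. Sox2 was at 0.86 on NPC and -3.57 and -4.41 on the iHPC arrays (difference -4.86 ± 0.50, limma adjusted p = 0.0338). Pax6 went from -0.99 to -3.05 and -2.84 (adjusted p = 0.0439), and Gli2, an effector of hedgehog signalling, from 0.33 to -3.04 and -2.47 (adjusted p = 0.0467). These genes stayed well above background on both iHPC arrays. Zic1, a neural zinc finger factor, was at 1.74, 1.71 and 3.70 and did not pass (adjusted p = 0.0628, 0.00815 with scan day as a block). Nes was higher in iHPC, at 2.66 and 2.87 against 1.18, and did not pass (adjusted p = 0.238).

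Neuronal and axon guidance genes had 4 of 37 lower (10.8%) and 1 higher (2.70%), with a median of -1.74. Slit3, a guidance ligand, fell from 2.88 on NPC to -4.93 and -4.05 in iHPC (difference -7.37 ± 0.51, limma adjusted p = 0.0285). Sema6a fell by 2.61, and Sema3d was at least 2.18-fold lower. Against them Epha4, an ephrin receptor, rose from -5.09 to 0.84 and 0.65 (difference 5.83 ± 0.36, adjusted p = 0.0285), with HPC at 2.19 and 2.80. Ncam1, the neural cell adhesion molecule, was at 2.34, 2.40 and 4.23 and did not pass (adjusted p = 0.403). Among 20 glial genes Mbp, myelin basic protein, rose by 2.94 and Gpr17 was at least 3.77-fold higher, while Pdgfra fell. The list as a whole leaned lower, with 4 and 12 passing with scan day as a block, 14 of 20 below NPC on both iHPC arrays and a median of -0.97.

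Of 43 Wnt genes 5 fell (11.6%) and 0 rose (17 and 5 at an unadjusted p under 0.05), with a median of -0.78. Rspo2 and Rspo1, R-spondins that strengthen Wnt signals, were at least 14.85-fold and 10.25-fold lower, Lef1, the nuclear partner of beta-catenin, fell from 0.48 to -4.80 and -5.10 (limma adjusted p = 0.0339), and Frzb, a secreted inhibitor, fell by 3.78. Fzd2, a receptor, was at -0.39, -0.38 and 4.34 and just missed the threshold (adjusted p = 0.0581, 0.00438 with scan day as a block). Of 45 TGF-beta and BMP genes 3 fell (6.67%) and 0 rose (10 and 7 unadjusted), with a median of -0.32. Tgfb2 fell from 1.39 to -2.92 and -2.81 (adjusted p = 0.0374), and the receptor Bmpr1b and the antagonist Chrdl1 were at least 2.73-fold and 1.89-fold lower. Hedgehog genes Boc, a co-receptor, and Gli2 fell by 5.86 and 3.08 among 29 Notch and hedgehog genes, and the Notch ligand Jag2 rose by 4.07 ± 0.30 (adjusted p = 0.0285).

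Growth factor genes went both ways in equal number, with 6 of 56 higher, 6 lower and a median of 0.25. Over all genes tested, 2.80% were called higher and 2.85% lower. The growth factor counts were 13 and 13 at an unadjusted p under 0.05, and 17 and 17 with scan day as a block. The 6 that rose were Fgfr4, Erbb3, Tgfa, Fgf21, Pdgfb and Flt1. Erbb3, a receptor for neuregulins, was at 2.53, 2.96 and -2.27 on 9F, 10F and NPC (limma adjusted p = 0.0389), and Tgfa, an EGF receptor ligand, was at least 13.28-fold higher. The 6 that fell were Fgf10, Pdgfra, Pdgfc, Mst1r, Igfbp2 and Fgf8. Fgf10, a ligand made by mesenchyme, was at -1.49 on NPC and at least 15.41-fold lower in iHPC (adjusted p = 0.0285), Pdgfc, a PDGF ligand, fell from 3.20 to -1.34 and -1.16 (adjusted p = 0.0301), and Mst1r, the receptor for MSP, from 0.24 to -4.14 and -4.07 (adjusted p = 0.0286).

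Of 34 interferon-stimulated genes 3 rose (8.82%) and 1 fell (2.94%), with a median of 0.45. The list was nearer even at an unadjusted p under 0.05 (5 higher, 4 lower) and with scan day as a block (9 and 6). The 3 were all oligoadenylate synthetase genes, which sense viral RNA: Oas2, at -0.49, -0.70 and -5.68, was at least 32.0-fold higher (limma adjusted p = 0.0285), Oas3 at least 16.99-fold, and Oasl1 rose by 2.40 (adjusted p = 0.0348). Trim30a, another interferon-induced gene, was at -3.15 on NPC and at least 4.84-fold lower in iHPC (adjusted p = 0.0314). Ifitm3, an interferon-induced membrane protein, was at 4.06, 3.90 and 5.50 and did not pass (adjusted p = 0.423). Among 35 chemokine and cytokine genes 4 rose (11.4%) and 2 fell (5.71%), but with scan day as a block 10 rose and 12 fell, and 14 lay above and 17 below NPC on both iHPC arrays. Il1rn, the IL-1 receptor antagonist, was at least 33.72-fold higher, Cxcl1 and Cxcl10 rose by 3.31 and 2.82, and Il6, at -4.44 and -4.71 in iHPC, was at least 2.03-fold higher; Cxcl14 was at least 111.1-fold lower and Il18 fell by 2.25. Limma called 0 of 15 antigen presentation genes (0 higher and 3 lower at an unadjusted p under 0.05; 1 and 5 with scan day as a block).

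The median of 50 genes of DNA replication and mitosis was 0.55, 41 lay above NPC on both iHPC arrays, and 2 rose (4%) and 0 fell (18 and 0 at an unadjusted p under 0.05; 21 and 0 with scan day as a block). The 2 were Rrm2, of deoxynucleotide supply, at 2.89, 2.95 and 0.82 (limma adjusted p = 0.0487), and Ccne2, a cyclin of S phase entry, at least 4.62-fold higher (adjusted p = 0.0436), and neither passed with median centring. Mcm6, of the replicative helicase, was at 6.37, 6.33 and 5.33 (adjusted p = 0.123), and Pcna, the polymerase clamp, at 5.49, 5.38 and 4.60 (adjusted p = 0.157). Among 29 p53 targets and cell cycle inhibitors Perp and Tigar rose, Tigar by 2.22, and Plk2 fell by 3.01; Cdkn2b, a CDK inhibitor, was at 4.08, 3.91 and 5.22 and did not pass (adjusted p = 0.906), with HPC at 0.78 and -8.65.

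Limma called 0 of 30 imprinted genes (4 higher and 5 lower at an unadjusted p under 0.05), while 6 rose and 13 fell with scan day as a block. Mest was at 1.19 and 1.97 in iHPC and 5.18 in NPC, with HPC at -8.27 and -0.84 (limma adjusted p = 0.599, 0.0167 with scan day as a block). Magel2 was at -4.35, -4.23 and 0.03, with HPC at 0.61 and -6.60 (adjusted p = 0.509, 0.00442 with scan day as a block). Of 17 genes of pluripotency, early embryo and germline, Sox2 alone was called. Rhox5, a reproductive homeobox gene of the X chromosome, was at 8.07 and 7.83 in iHPC and 7.12 in NPC and did not pass (adjusted p = 0.225), with HPC at -2.51 and -2.91.

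**Figure D5:**
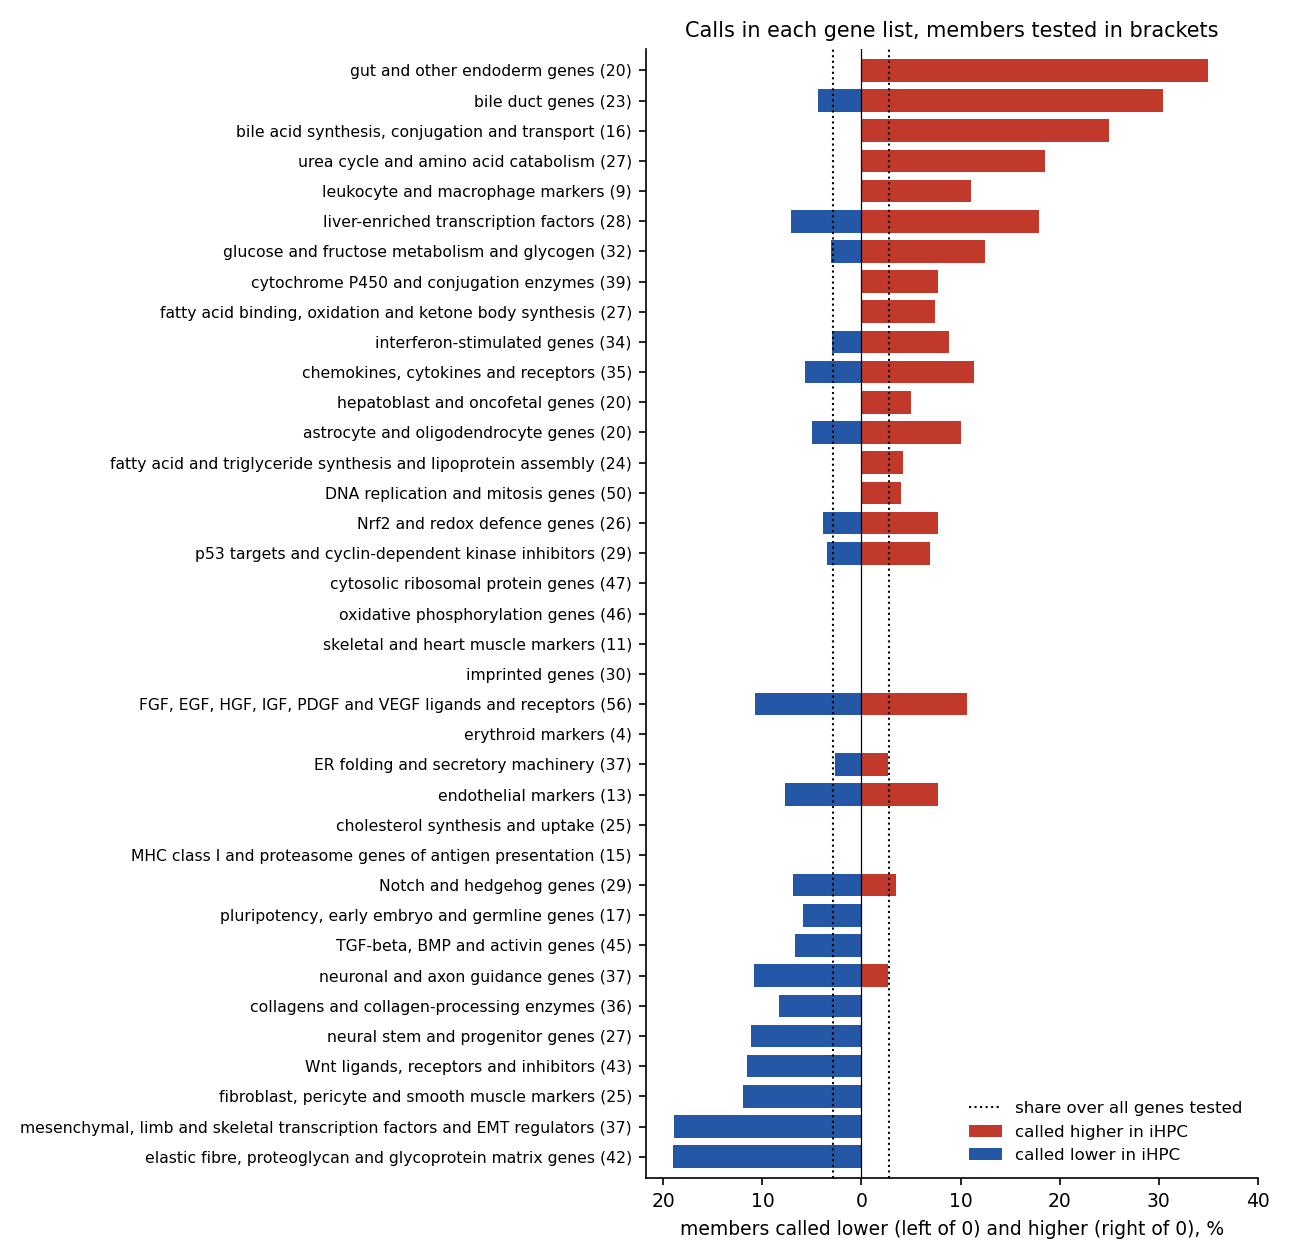
Bars give the percentage of tested members called higher (right of 0) or lower (left of 0) in iHPC for 37 gene lists, with the number tested in brackets and dotted lines at the share over all genes tested, 2.80% higher and 2.85% lower. Gut and endoderm genes reach 35.0% higher and matrix glycoprotein genes 19% lower, while lists such as oxidative phosphorylation have no bar.

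The HPC mean lay beyond both iHPC arrays, on the side away from NPC, for 208 of the 540 genes called higher and 365 of the 550 called lower. The same count over all genes tested was not made. Of the 550, 253 had no probe well above background on either iHPC array. The lowest level well above background was -5.99 and -6.62 on the HPC arrays, and -5.67 and -5.19 on iHPC 9F and 10F. A dim probe can thus lie lower on HPC through the scale alone, and for these 253 genes the order of HPC and iHPC is not read. Perp was at 3.58 and 3.57 in iHPC, -7.00 in NPC and 4.87 and 5.04 in HPC, and Cbr2, a carbonyl reductase, was at -0.48 and -0.29 in iHPC, 5.89 in NPC and -6.56 and -6.43 in HPC. Comparisons of iHPC and of HPC with NPC share the NPC array.

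A small gap between 9F and 10F favours a call, so the called genes cannot show how alike the cultures were. Among them the widest gaps outside the lists set apart included Agr2, at -1.20 on 9F and 0.58 on 10F, and Cdh16, at 3.17 and 2.00. Cltrn was at 0.94 and 1.92, and Pdgfra at -5.79 and -4.66.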

How the data were processed

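RNA of 5 cultures (2 iHPC, 1 NPC, 2 HPC) was hybridised to 1-colour Agilent mouse arrays, 0.25 µg each. Per the file headers, the deposited intensity values were extracted with Agilent Feature Extraction 10.7.3.1, which subtracted background and detrended each array. The deposited value table equalled that processed intensity on 100% of spots. From it, log2 was taken here and the array's 75th percentile subtracted. Control spots were left out, spots of a probe were averaged, and a gene was tested where all arrays of some group were well above background, on its probe of highest mean level. Of 41149 probes with values on all arrays 22940 were named through RefSeq accessions, 6658 through symbols, and 11551 kept the file's name.

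Limma 3.58.1 in R 4.3.3 fitted the 3 groups on all 5 arrays (lmFit, eBayes), with Benjamini-Hochberg adjustment over 19310 genes and a threshold of 0.05. An exact permutation test of 2 arrays against 1 cannot go below p = 0.333. Named genes were the 12 largest called changes per direction, for genes measured in both groups and for those given as bounds, and up to 4 called members per direction and the 2 of highest level in each of 37 lists; outside this rule, genes dim in both HPC lines, those of the printed promoters, further called list members completing a count, and Klf15, Prox1, Gata6, Mest, Magel2 and Pcna were chosen after their values were seen. The members and lists were chosen with earlier results of these data known. Promoters are those of RefSeq, GRCm38.p6. Alternatives changed the scaling, background correction, filter, probe summary, scan day, model, threshold and the arrays used. Some genes counted among the calls are not reported here by name.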

Additional observations from a re-analysis of the deposited data

How the results depend on the processing

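The count of called genes, 1090 (540 higher, 550 lower), could not change with the deposited values (1090) or a 2-fold minimum (1090). The deposited values equal the processed intensity, and the smallest called difference was 1.64 on the log2 scale. The count stayed within 1.5 times with median centring (1292), normexp (1429), means over probes (1180) and a trended and robust model (1312), and was 1560 with quantile normalization. It was 305 with no filter (187 and 118), 492 with all 5 arrays above background (275 and 217), 384 with all iHPC and NPC arrays above background (203 and 181), 6755 with scan day as a block (3237 and 3518) and 7312 with only the 3 arrays (3488 and 3824). With iHPC 9F or 10F as a group of its own it was 0 (2122 and 2125 at an unadjusted p under 0.05). Leaving out 1 replicate gave 0 to 6538 calls, 0 to 3112 higher and 0 to 3426 lower. The counts per list are small and moved more: of 74 (higher and lower in 37 lists), 8 moved by over 1.5 times with the mean of a gene's probes, 11 with median centring, 16 with quantile normalization, 19 with normexp, 38 with no filter and 67 with scan day as a block. With normexp 4 bile duct genes passed lower in place of 1, 7 collagen genes in place of 3 and 11 Wnt genes in place of 5, and with no filter 0 mesenchymal factors in place of 7. An array left alone in its group was assumed to vary like the others. A fit with the slide as a random block was not run, since its correlation could not be estimated. No paired analysis was possible because the replicate numbers used here only follow the order of the samples, and the arrays are of different lines and cultures. Signals near background bound many folds from 1 side.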
